A study of Mus musculus with 35 samples.

Results

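Transcripts of 10 genes that encode histone variants or high mobility group (HMG) chromatin proteins were described in single mouse embryonic fibroblasts with and without micronuclei. The genes were H2afz, H2afv, H2afy, H3f3a, H3f3b, H1f0, Hmgb1, Hmgn1, Hmga1 and Hmga2. They were chosen by symbol, and all 10 were present among the 19085 gene entries of the deposited table. The 35 cells were C57Bl/6J fibroblasts (MEFs) kept in culture at 3% oxygen, exposed to 1 Gy of radiation, transferred to membrane dishes after 32 h, stained for DNA with PicoGreen at 48 h and cut out singly with a laser. By their labels 21 cells had micronuclei, which are chromatin bodies enclosed apart from the main nucleus, and 14 cells had none. All 35 cells had been irradiated, so the cells without micronuclei are irradiated cells too and no unirradiated cell was used here. Smart-seq2, which copies polyadenylated RNA over its full length and adds no molecular identifiers, gave 1 library per cell.

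The labels do not say from which embryos or dishes the cells came, so each group was treated as 1 sample and no test or p-value is given. Values are reads of a gene scaled to the library's total on genes (CPM), with cells numbered within their group in the order of their records. Each cell's reads on genes ranged from 57514 to 1794113 with micronuclei (median 281800) and from 56766 to 2023111 without (median 736715). Fibroblast markers were read in both groups, but some of them not in every cell. Col1a1 was summed at 2489 CPM with micronuclei and 2616 CPM without. No cell fell under 5 reads of Col1a1, Vim or S100a4. Col1a2, Thy1 and Fn1 each reached 5 reads in 34 of 35 cells. Fewer cells reached 5 reads of Col3a1 (25 of 35), Dcn (17) and Pdgfrb (13). For Dcn these were 10 of 21 cells with micronuclei and 7 of 14 without. Micronucleated cell 10 stood apart, with 14667 CPM on 7 macrophage markers and at least 5 reads of each of them. Lyz2, the most abundant of these, had 0 reads in all cells without micronuclei. Of the 7 markers only Cd68 had reads there, 217 without against 195 with micronuclei. Micronucleated cell 6 had 1452 CPM on the markers but at least 5 reads of only 1 of them. Without the 3 micronucleated cells that had at least 2 of these markers, the largest move of any member's log2 ratio was 0.11 (H2afv). Without the 6 cells with under 4000 detected genes or over 9% mitochondrial reads, 4 with and 2 without micronuclei, the largest move was 0.20 (Hmgb1). In both cases no member changed its side of 0. Markers of other cell types had no common direction. The epithelial genes Krt19 and Krt18 had 67.8 and 0 CPM with micronuclei, against 44.8 and 2.41 CPM without, and Krt8 had 0 reads in all cells. The neural genes Tubb3 and Sox2 had 62.7 and 9.02 CPM with micronuclei, against 40.0 and 14.7 CPM without, and endothelial Pecam1 had 0 reads with and 8 reads without.

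Histones package DNA into nucleosomes, and most of their protein is made from clustered genes while DNA is copied. Variants such as H2A.Z, macroH2A, H3.3 and the linker histone H1.0 are made from separate genes with polyadenylated transcripts, and dedicated chaperones and remodelling complexes place them in chromatin outside replication as well. HMG proteins bind DNA or nucleosomes without being part of them: HMGB proteins bend DNA, HMGN proteins bind the nucleosome itself and HMGA proteins bind AT-rich DNA in the minor groove. In fibroblasts HMGA proteins are known from studies of senescence and of fetal growth, and HMGB1 from its release by damaged cells as a signal to innate immunity.

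The set holds pairs of genes whose products are the same or nearly so, H3f3a with H3f3b for H3.3 and H2afz with H2afv for H2A.Z, and their promoters are shown because the members of a pair were read at very different levels. The sequences are RefSeq's, from 250 bases before to 50 bases from the annotated start on GRCm38.p6, written 5′ to 3′ on the strand of the gene. Capitals mark matches on either strand to any of 5 motifs, namely the CCAAT box, the GC box core with the letters GGGCGG, the cyclic AMP element TGACGTCA, the TATA box in its form TATAAA and the E-box CACGTG. Where a match is on the other strand, its reverse complement stands in capitals.
H3f3b (chr11:116024455-116024754, minus strand): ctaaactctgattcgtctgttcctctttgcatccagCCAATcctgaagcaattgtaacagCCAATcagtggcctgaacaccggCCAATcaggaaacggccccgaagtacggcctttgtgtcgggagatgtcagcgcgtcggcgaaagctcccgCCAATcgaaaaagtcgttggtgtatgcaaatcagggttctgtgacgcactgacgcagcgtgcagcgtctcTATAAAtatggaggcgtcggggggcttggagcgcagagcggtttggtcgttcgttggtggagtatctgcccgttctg
H3f3a (chr1:180813556-180813855, minus strand): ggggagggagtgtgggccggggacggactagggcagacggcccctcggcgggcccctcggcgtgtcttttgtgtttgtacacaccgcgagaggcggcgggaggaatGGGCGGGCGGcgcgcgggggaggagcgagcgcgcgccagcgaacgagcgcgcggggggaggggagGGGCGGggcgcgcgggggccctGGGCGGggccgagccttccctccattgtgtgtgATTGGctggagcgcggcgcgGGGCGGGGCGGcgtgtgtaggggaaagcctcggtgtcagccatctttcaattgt
H2afz (chr3:137864237-137864536, plus strand): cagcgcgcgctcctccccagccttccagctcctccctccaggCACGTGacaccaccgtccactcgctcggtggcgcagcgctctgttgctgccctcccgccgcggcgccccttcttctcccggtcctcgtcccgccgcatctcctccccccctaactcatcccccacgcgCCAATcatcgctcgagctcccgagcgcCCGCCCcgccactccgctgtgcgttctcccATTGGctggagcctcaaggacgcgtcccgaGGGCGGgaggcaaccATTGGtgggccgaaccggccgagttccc
H2afv (chr11:6444394-6444693, minus strand): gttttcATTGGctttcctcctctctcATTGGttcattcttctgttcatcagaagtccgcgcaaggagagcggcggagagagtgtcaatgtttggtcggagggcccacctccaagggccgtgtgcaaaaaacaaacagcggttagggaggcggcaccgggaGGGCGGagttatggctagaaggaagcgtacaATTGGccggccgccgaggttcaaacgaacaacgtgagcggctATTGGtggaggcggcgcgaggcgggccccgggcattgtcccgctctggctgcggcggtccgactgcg
The H3f3b window held 4 matches to CCAAT, none to GGGCGG and a TATAAA that begins at position -27 from the start, with a GC content of 55.0%. The H3f3a window held 1 CCAAT, 6 GGGCGG matches, of which some overlap each other, and no TATAAA, at 74.0% GC. The H2afz window held 3 CCAAT, 2 GGGCGG and 1 CACGTG at 71.3% GC, and the H2afv window held 4 CCAAT and 1 GGGCGG at 60.7% GC. Of 32851 mouse promoter windows of the same length, 37.4% held a CCAAT, 35.7% a GGGCGG, 13.6% a TATAAA, 7.15% a CACGTG and 1.79% a TGACGTCA, and their median GC content was 52.7%. Such matches describe the letters and do not show that a factor binds there.

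H3f3b was the most abundant member and took 42.1% of all reads on the 10 genes in micronucleated cells and 39.8% in cells without micronuclei. Per kilobase of annotated exon, the summed level of H3f3b was 599 CPM per kb with micronuclei and 579 CPM per kb without. H2afz followed with 275 CPM per kb with micronuclei and 345 CPM per kb without, then Hmgn1 with 223 CPM per kb with and 198 CPM per kb without, then Hmga1 with 149 CPM per kb with and 95.9 CPM per kb without. The remaining 6 genes lay between 17.9 and 55.0 CPM per kb with micronuclei and between 13.5 and 79.3 CPM per kb without, and their order differed between the groups. H2afv lay at 51.8 CPM per kb with micronuclei and 17.4 CPM per kb without, but its place among these 6 depends on the length taken: per kilobase of the principal transcript Hmgb1 was at 74.9 and H2afy at 59.7 CPM per kb with micronuclei, above H2afv, where per kilobase of all exons they were at 42.3 and 17.9. The place of Hmga1 depends on the length as well. Per kilobase of the principal transcript it was at 102 CPM per kb without micronuclei, below Hmga2 at 145 and Hmgb1 at 123. These summed levels have no replicate spread, and the ranges over cells of neighbours in either order overlapped. H2afz had at least 5 reads in 34 cells, and H3f3b, Hmgb1, Hmgn1, Hmga1 and Hmga2 had at least 5 reads in all 35. Among the 8390 genes called measured (5 CPM or more in the sum of both groups, with 5 or more reads in 5 or more cells), 6.41% reached 5 reads in at least 34 cells.

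**Figure D1:**
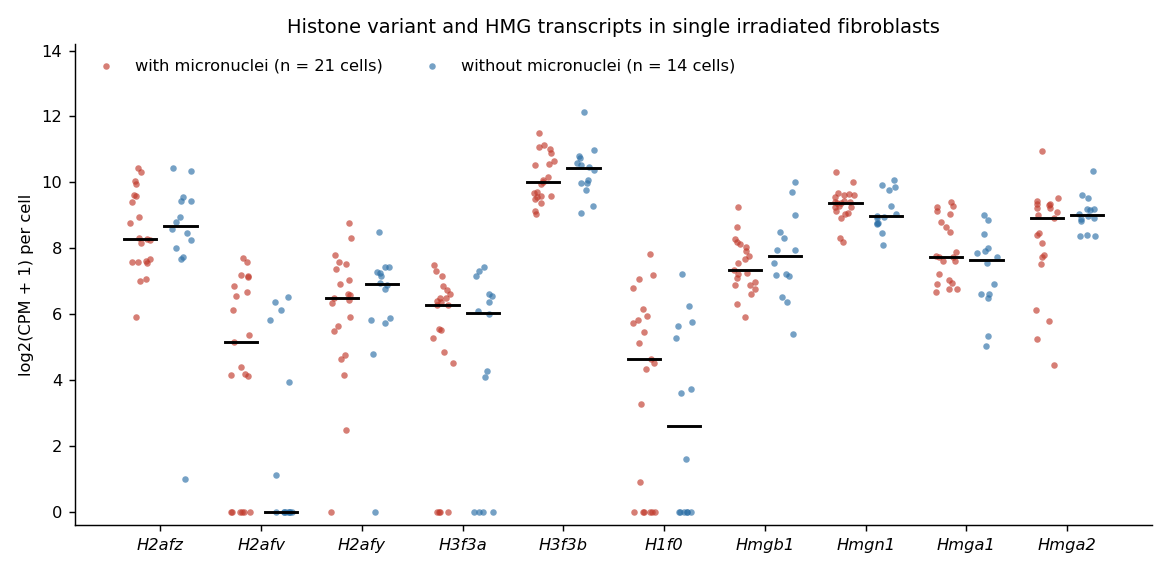
The vertical axis gives log2(CPM + 1) in each cell for the 10 members on the horizontal axis, with 1 point per cell for 21 cells with micronuclei and 14 without, beside each other for every gene, and a bar at the median of each group. H3f3b lies highest in both groups, the micronucleated cells spread far below the other cells for Hmga2, and cells at 0 occur for H2afv, H2afy, H3f3a and H1f0.

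The 10 genes shared no common direction between the groups. The log2 ratio used here is log2((CPM with micronuclei + 1)/(CPM without + 1)) of the summed reads, so positive values are higher in micronucleated cells. It was above 0 for 6 members and below 0 for 4, beside 56.0% and 44.0% of the measured genes. H2afv and H1f0 reached 2-fold higher, where 22.9% of measured genes did, and no member reached 2-fold lower, where 14.7% did, so the 2 of 10 past 2-fold stand against 37.7% of measured genes. The median log2 ratio of the members was 0.11, and that of all measured genes was 0.15. TMM scaling moved the median of all measured genes by -0.13, to 0.01, and left 5 members higher, since H3f3b passed below 0. H2afv, H3f3a, H1f0 and Hmga1 were higher, and H2afz, Hmgb1 and Hmga2 lower, in the sums, in the means with equal weight for every cell and in all 35 sums that each left out 1 cell. Over measured genes 33.5% kept a higher and 20.1% a lower sign in this way, 53.7% together, against 4 and 3 of the 10 members. The deepest micronucleated library, cell 13, held 16.2% of its group's reads and was the largest contributor of micronucleated reads for 7 of the 10 members. Without it Hmgn1 and H3f3b turned to the other side of 0.

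**Figure D2:**
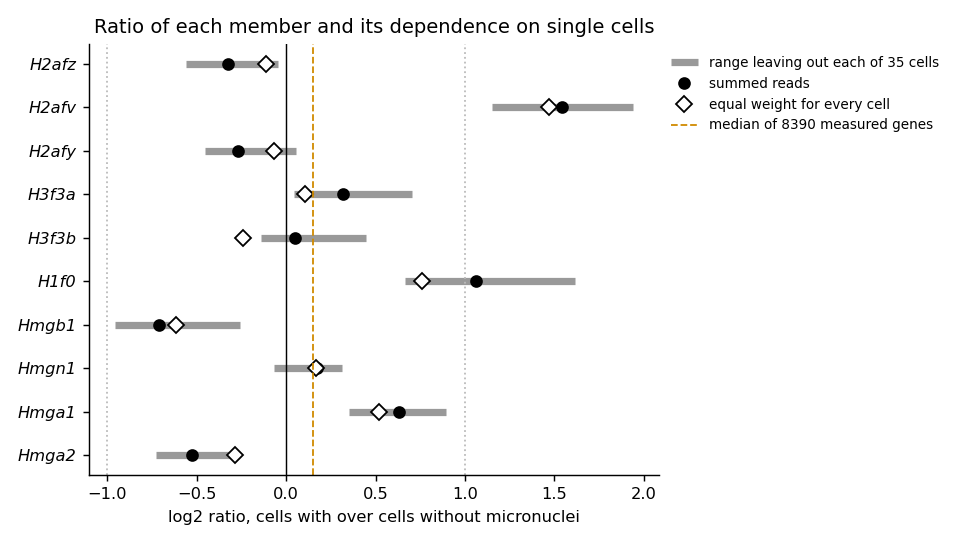
The horizontal axis gives the log2 ratio of cells with over cells without micronuclei for the 10 members down the page, with a filled point for summed reads, an open diamond for equal weight per cell and a grey bar for the range when each of the 35 cells is left out. The bars of H2afy, H3f3b and Hmgn1 cross 0, H2afv lies farthest right at 1.54, Hmgb1 farthest left at -0.71, and the dashed line is the median of 8390 measured genes at 0.15.

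Of the H2A variants, H2A.Z marks promoters and sites of DNA damage and is encoded by H2afz (chr3:137864487-137866922) and H2afv (chr11:6427229-6444443). H2afz in micronucleated cells had a lowest value of 58.7 CPM, a median of 308 CPM and a highest of 1388 CPM, and in cells without micronuclei 1.01, 412 and 1391 CPM. The groups overlapped almost completely, and the value of 1.01 CPM was a single read in cell 5 without micronuclei, a library of 990546 reads. The summed level of H2afz was 488 CPM with micronuclei (95% Poisson interval 476 to 502) and 613 CPM without (599 to 628), a log2 ratio of -0.33. With equal weight for every cell the ratio was -0.11, and the mean of log2 values per cell was higher in micronucleated cells by 0.15, so its direction depended on the weighting. Leaving out micronucleated cell 9 gave -0.56, and leaving out cell 8 without micronuclei gave -0.05.

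H2afv, the other H2A.Z gene, had the largest ratio of the 10. Among micronucleated cells 15 of 21 had a read of it, with a median of 34.7 CPM and a highest value of 207 CPM, against 6 of 14 cells without micronuclei, with a median of 0 and a highest value of 91.1 CPM. Both groups held cells at 0, and the separation was at the top: 8 micronucleated cells lay above the highest cell without micronuclei, a split chosen after its values were seen and reached by 1.32% of measured genes. Without the 8 cells of few genes, high mitochondrial share or macrophage markers given above, it was 8 of 15 micronucleated cells. The share of measured genes that reach such a split was not computed for this smaller set of cells. The libraries without an H2afv read included cells 7 and 8 without micronuclei, with 2023111 and 1418800 reads, in which a count of 0 allows up to 1.48 and 2.11 CPM. These limits cover counting error only, and the same libraries had 4156 and 4118 detected genes. Against genes detected, H2afv CPM had a Spearman rho of 0.32 over 35 cells, -0.0053 with and 0.71 without micronuclei. The part of genes detected in the H2afv values was not tested. At least 5 reads were found in 12 of 21 micronucleated cells (57.1%, 95% Clopper-Pearson interval 34.0 to 78.2%) and in 5 of 14 cells without (35.7%, 12.8 to 64.9%). The intervals overlap, and after every cell was thinned to 100000 reads the numbers were 8 of 18 with and 3 of 13 without micronuclei.

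Summed over cells, H2afv reached 84.6 CPM with micronuclei (79.3 to 90.2) and 28.4 CPM without (25.4 to 31.7), a log2 ratio of 1.54. With equal weight it was 1.47, and it ranged from 1.15, leaving out micronucleated cell 13, to 1.94, leaving out cell 11 without micronuclei. Within the pair, H2afz made up 84.1% of the summed H2A.Z reads per length in micronucleated cells and 95.2% in cells without micronuclei. Its median share per cell was 91.0% over 20 micronucleated cells and 100% over 13 cells without, where at least 10 reads of the pair were required. The lowest shares were 45.7% with micronuclei and 76.9% without. These shares use the length of all annotated exons. Per length of the principal transcripts the summed shares were 89.8% with and 97.1% without, and the lowest were 58.3% with and 84.7% without.

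**Figure D3:**
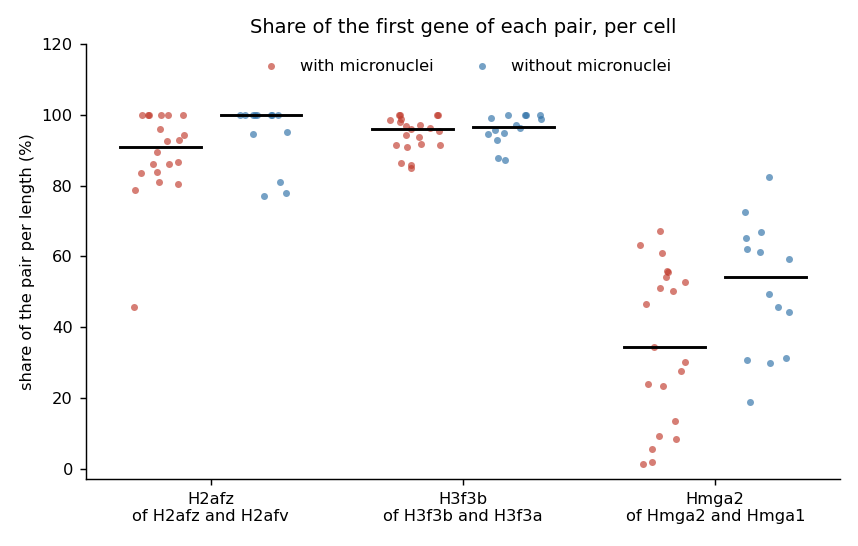
The vertical axis gives, per cell and in percent, the share of the first gene in the summed reads per exon length of each pair on the horizontal axis, for cells with micronuclei and, beside them, cells without, with a bar at the median. H3f3b holds at least 84.8% of the H3.3 pair in all 35 cells, while Hmga2 ranges from 1.44 to 67.1% of the Hmga pair with micronuclei and from 18.8 to 82.4% without.

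H2A.Z is exchanged by the SRCAP and p400 complexes and removed by INO80 and ANP32E, and 12 genes of this machinery were listed, all of them measured. Among them 6 were higher and 6 lower in micronucleated cells, with 5 past 2-fold higher and 2 past 2-fold lower. The median log2 ratio was 0.15, and -0.03 with equal weight for every cell. For this and the other lists, the shares of measured genes were 56% higher and 44% lower, with 22.9% past 2-fold higher and 14.7% past 2-fold lower. Vps72, which encodes the H2A.Z-binding subunit YL1 of both complexes, had 81.8 CPM with micronuclei and 14.4 CPM without, a log2 ratio of 2.43 that stayed between 2.17 and 3.10 without any single cell. Ruvbl2, an ATPase shared by the complexes, had 189 CPM with micronuclei and 42.6 CPM without (log2 ratio 2.12), but micronucleated cell 13 held 52.5% of all its reads and the ratio was 0.87 without it. Yeats4, a histone acetylation reader of both complexes, had 67.3 CPM with micronuclei and 28.1 CPM without (log2 ratio 1.23), and 0.70 without micronucleated cell 11. The 2 genes past 2-fold lower were Ruvbl1 and Ep400. Ruvbl1 had 51.1 CPM with and 129 CPM without (-1.32), and 0.28 without cell 7 of the cells without micronuclei. Ep400 had 19.5 CPM with and 49.6 CPM without (-1.30), and -0.64 without cell 4 of that group.

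MacroH2A1, encoded by H2afy (chr13:56073619-56136361), carries a large globular domain and is known from repressed chromatin and the inactive X chromosome. Its lowest, median and highest values were 0, 88.7 and 430.3 CPM in micronucleated cells, and 0, 121 and 360.2 CPM in cells without micronuclei. The groups overlapped over nearly their whole range, with 1 cell at 0 in each and 1 micronucleated cell above the highest other cell. Summed levels were 122 CPM with micronuclei and 147 CPM without (log2 ratio -0.27), which became -0.07 with equal weight and 0.05 when cell 8 without micronuclei was left out. Of 12 further variant genes listed, 7 were in the table and 3 measured, 1 higher and 2 lower. H2afj, a replication-independent H2A known from senescent human fibroblasts, had 154 CPM with micronuclei and 168 CPM without (log2 ratio -0.12).

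The variant H3.3 replaces H3 outside replication and is encoded with the same amino acid sequence by H3f3a (chr1:180800832-180813943) and H3f3b (chr11:116021912-116027962). H3f3b was found in every cell, with a lowest value of 524 CPM, a median of 1031 CPM and a highest of 2912 CPM in micronucleated cells, and 540.4, 1379 and 4478 CPM in cells without micronuclei. Its medians and its sums pointed in opposite directions, since the summed level was 1783 CPM with micronuclei (1758 to 1808) and 1724 CPM without (1699.7 to 1748), a log2 ratio of 0.05. The ratio was -0.24 with equal weight, -0.21 in thinned cells and -0.14 without micronucleated cell 13, so no direction held across weightings. Across the 35 cells H3f3b CPM was higher in libraries with more reads on genes (Spearman rho 0.66, and 0.62 after thinning). Depth differed between the groups, and its part in these values was not tested.

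H3f3a was read at a far lower level. Among micronucleated cells its values ran from 0 through a median of 76.6 CPM to 178 CPM, and among cells without micronuclei from 0 through 64.9 to 173 CPM. Each group had 4 cells at 0, and only 1 micronucleated cell lay above the highest cell without micronuclei. Summed levels were 76.5 CPM with micronuclei (71.4 to 81.8) and 61.2 CPM without (56.8 to 65.9), a log2 ratio of 0.32, with 0.10 at equal weight, 0.04 without cell 7 and 0.70 without cell 4 of the cells without micronuclei. H3f3b supplied 96.5% of the summed H3.3 reads per length in micronucleated cells and 97.1% in cells without, with per-cell medians of 95.9% with and 96.6% without. Over 35 cells the Spearman rho between the CPM of H3f3a and H3f3b was -0.01.

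H3.3 is placed by the HIRA complex at active genes and by DAXX with ATRX at repeats and telomeres. Of 8 listed genes of these routes 7 were measured, 3 higher and 4 lower, with 1 past 2-fold higher, 2 past 2-fold lower and a median log2 ratio of -0.23. Atrx, the remodeller of the second route, had 103 CPM with micronuclei and 227 CPM without (log2 ratio -1.13), and -0.57 without cell 7 of the cells without micronuclei. Daxx, its H3.3 chaperone partner, had 20.7 CPM with micronuclei and 7.84 CPM without (log2 ratio 1.29), and 0.27 without micronucleated cell 14. Ubn1, a subunit of the HIRA complex, had 14.3 CPM with micronuclei and 109 CPM without (log2 ratio -2.85), and cell 7 without micronuclei held 63.8% of all its reads, so the ratio was -1.32 without that cell.

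H1f0 (chr15:79028450-79030504) encodes H1.0, a linker histone that accumulates in cells that have stopped dividing. It had a read in 15 of 21 micronucleated cells, with a median of 23.7 CPM and a highest value of 226 CPM, and in 8 of 14 cells without micronuclei, with a median of 6.57 CPM and a highest of 148 CPM. Apart from 1 micronucleated cell above all others the ranges overlapped, and 6 cells were at 0 in each group. At least 5 reads were found in 11 of 21 cells with micronuclei (52.4%, 29.8 to 74.3%) and in 7 of 14 without (50.0%, 23.0 to 77.0%). Summed levels were 58.9 CPM with micronuclei (54.5 to 63.6) and 27.7 CPM without (24.8 to 30.9), a log2 ratio of 1.06. It was under 2-fold with equal weight (0.76), after thinning (0.52) and without micronucleated cell 13 (0.66), and was 1.62 without cell 6 of the cells without micronuclei. H1f0 CPM was higher in cells with more genes detected (Spearman rho 0.47 over 35 cells). The medians of genes detected were 6812 with and 6082 without micronuclei, and their part in the ratio was not tested.

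Transcripts of the clustered histone genes mostly lack a poly(A) tail, so this assay reads the polyadenylated part only, and near-identical copies can share reads. Of 35 listed, 28 were in the table and 8 measured, 6 higher and 2 lower in micronucleated cells, beside 56% and 44% of measured genes. Past 2-fold, 3 were higher and 1 lower, beside 22.9% and 14.7% of measured genes. The median log2 ratio was 0.97, and 0.59 with equal weight for every cell. Hist1h1c, a linker histone gene, had 30.3 CPM with micronuclei and 12.5 CPM without (log2 ratio 1.22, 0.73 with equal weight and 0.89 without micronucleated cell 14). Hist1h4i, an H4 gene, had 18.7 CPM with micronuclei and 6.72 CPM without (1.35, and 0.73 without micronucleated cell 2). Hist3h2a, an H2A gene, had 10.5 CPM with and 4.13 CPM without (1.16, and 2.02 without cell 13 of the cells without micronuclei).

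Hmgb1 (chr5:149046702-149184489) encodes a DNA-bending protein of the nucleus. In micronucleated cells its lowest, median and highest values were 58.7, 161 and 605 CPM, and in cells without micronuclei 41.0, 216 and 1027 CPM. The ranges overlapped, with 2 cells without micronuclei above all micronucleated cells, as for 18.4% of measured genes, and 1 of these 2, cell 5, had under 4000 detected genes. Summed levels were 213 CPM with micronuclei (204 to 221) and 349 CPM without (338 to 360), a log2 ratio of -0.71, the lowest of the 10. The ratio was -0.62 with equal weight, -0.45 after thinning and -0.31 as a difference in the mean of log2 values per cell. Cell 8 without micronuclei, which held 36.0% of its group's Hmgb1 reads, brought the summed ratio to -0.26 when left out. After thinning the median was 18.5 reads with micronuclei and 16 reads without, so the medians then pointed the other way from the sums. The summed ratio was -0.52 without the 6 cells of few genes or high mitochondrial share. Of 7 listed receptors of extracellular HMGB1, 5 were in the table and 2 measured, both lower. Cd24a, a surface glycoprotein, had 70.7 CPM with micronuclei and 228 CPM without (log2 ratio -1.67), and -0.66 without cell 5 of the cells without micronuclei.

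Hmgn1 (chr16:96120618-96127729), whose product loosens chromatin by binding nucleosomes, was read in all cells within a narrow range. Its values were 293, 668 and 1284 CPM (lowest, median and highest) in micronucleated cells and 273, 500.5 and 1068 CPM in cells without. Its coefficient of variation was 0.32 with micronuclei, the lowest of the 10 members there, and 0.42 without, where that of Hmga2 was 0.44, or 0.28 without cell 1 of the cells without micronuclei. The ranges of Hmgn1 covered each other almost fully. Summed levels were 717 CPM with micronuclei and 638 CPM without, a log2 ratio of 0.17 that was also 0.17 with equal weight and -0.07 without micronucleated cell 13. Of 10 other HMG genes measured, 5 were higher and 5 lower (3 and 7 after TMM or median-of-ratios scaling), with 1 past 2-fold higher and a median of 0.03. Hmgn2, the close relative of Hmgn1, had 104 CPM with micronuclei and 191 CPM without (log2 ratio -0.88, and -0.37 without cell 4 of the cells without micronuclei). Hmgxb4, an HMG-box gene, had 25.8 CPM with micronuclei and 4.82 CPM without (log2 ratio 2.20), with 51.2% of its reads in micronucleated cell 14 and a ratio of 1.11 without it.

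The HMGA genes differed in direction. Hmga1 (chr17:27556497-27563674) had a lowest, median and highest value of 101, 212 and 682 CPM in micronucleated cells and of 31.6, 199 and 513 CPM in cells without micronuclei. The medians were close, and the groups differed at their ends: 5 micronucleated cells lay above the highest cell without micronuclei, as for 6.56% of measured genes, and 5 cells without micronuclei lay below the lowest micronucleated cell, as for 0.25%, or 3.09% of the 679 measured genes with reads in all 21 micronucleated cells. The 5 high cells included cell 10, with macrophage markers, and cell 6, with 2391 detected genes. Both splits were chosen after their values were seen. Without the 8 cells named above they were 3 of 15 and 4 of 12 cells, and after thinning the numbers were 3 and 2. For these smaller or thinned sets of cells no share over measured genes was computed. Summed levels were 316 CPM with micronuclei (306 to 327) and 204 CPM without (196 to 212), a log2 ratio of 0.63, with 0.52 at equal weight and 0.35 without micronucleated cell 13.

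Hmga2 (chr10:120361275-120476469), an embryonic HMGA gene held down by let-7 microRNAs in adult tissue, was lower in micronucleated cells through a low tail. In micronucleated cells its lowest, median and highest values were 20.8, 486 and 1982 CPM, and in cells without micronuclei 327, 515 and 1296 CPM. The upper parts of the groups overlapped, while 8 of 21 micronucleated cells lay below the lowest cell without micronuclei. This split, chosen after its values were seen, was reached by 0.274% of measured genes, and by 2.54% of the 907 measured genes with reads in all 14 cells without micronuclei. The low cells included cell 10, with macrophage markers, and cells 6 and 21, with 2391 and 3097 detected genes, and without the 8 cells of these kinds 5 of 15 micronucleated cells lay below all 12 others. After thinning to 100000 reads 9 of 18 micronucleated cells lay below all 13 others, and cell 13, the deepest micronucleated library, was among the low cells with 36.8 CPM before thinning. No share over measured genes was computed for the smaller or the thinned set of cells. Summed levels were 373 CPM with micronuclei (361 to 384) and 537 CPM without (524 to 551), a log2 ratio of -0.53, with -0.28 at equal weight, -0.73 without micronucleated cell 14 and -0.30 without micronucleated cell 13.

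Per length of all annotated exons, Hmga2 supplied 27.0% of the summed HMGA reads in micronucleated cells and 45.3% in cells without micronuclei. Per length of the principal transcripts these shares were 38.9% with and 58.7% without. Its share per cell had a median of 34.3% with micronuclei, between 1.44 and 67.1%, and of 54.3% without, between 18.8 and 82.4%. How often Hmga2 led depended on that length: its share was above 50% in 9 of 21 cells with micronuclei and 7 of 14 without by all exons, and in 10 of 21 with and 10 of 14 without by principal transcripts. Of 9 listed genes tied to let-7 and Lin28, 8 were in the table and 5 measured, 3 higher and 2 lower, with 2 past 2-fold lower. Plagl2, a zinc finger factor, had 6.86 CPM with micronuclei and 62.3 CPM without (log2 ratio -3.01, and -2.68 without cell 10 of the cells without micronuclei). Igf2bp2, an RNA-binding protein gene regulated by HMGA2 in mouse, had 15.1 CPM with micronuclei and 96.2 CPM without (log2 ratio -2.60), with 67.5% of all reads in cell 7 without micronuclei and a ratio of -0.75 without it. Igf2bp3, its relative, had 34.5 CPM with and 16.9 CPM without (log2 ratio 0.99, and 0.59 without micronucleated cell 11).

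Across single cells, 36 of the 45 pairs of members had a positive and 9 a negative Spearman correlation of CPM, with a median rho of 0.19 and a lowest of -0.18. Only H2afz with Hmgb1 (0.54) and H2afz with Hmgn1 (0.51) exceeded 0.5. All of these are descriptions over 35 cells that share a depth and a total per library, with no p. Both pairs were positive within each group as well: H2afz with Hmgb1 at 0.66 with and 0.45 without micronuclei, and H2afz with Hmgn1 at 0.55 with and 0.60 without. After thinning, over 31 cells, H2afz had a rho of 0.50 with Hmgb1 and 0.43 with Hmgn1. Pearson r on log2 values over 35 cells was 0.14 with Hmgb1 and 0.41 with Hmgn1. Without the 2 cells farthest from the median of H2afz it was 0.65 and 0.58.

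**Figure D4:**
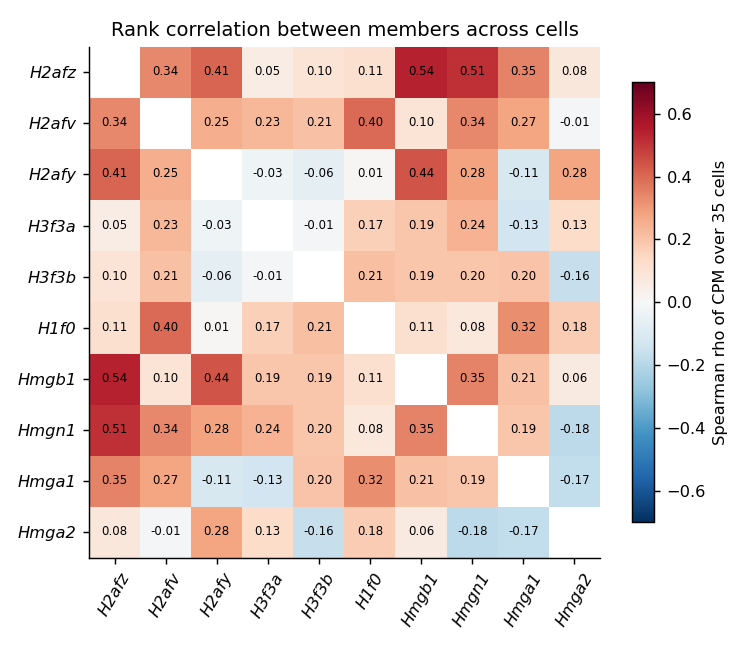
Each square gives the Spearman rho of CPM over the 35 cells for the member named on its row and the member named on its column, on a colour scale given beside the grid. H2afz with Hmgb1 (0.54) and with Hmgn1 (0.51) are the highest off-diagonal squares, and the row of Hmga2 is pale, with its lowest value at -0.18 against Hmgn1.

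H2afz followed the transcripts of dividing cells. Its CPM had a rho of 0.76 with the summed CPM of 22 proliferation genes over the 35 cells, 0.74 with and 0.83 without micronuclei and 0.68 after thinning, while the median over measured genes was 0.0079. Pearson r on log2 values was 0.50, and 0.83 without the 2 cells farthest from the median of H2afz, among them cell 5 without micronuclei. Hmgb1 had a rho of 0.53 with the same sum, and Hmga2 of -0.12. The proliferation sum itself had a median of 1136 CPM with micronuclei (216 to 6198) and 1484 CPM without (301 to 5319), and the groups overlapped widely in it. Its part in the ratios of H2afz and Hmgb1 was not tested. Of the 22 genes 21 were measured, 10 higher and 11 lower in micronucleated cells (6 and 15 after TMM or median-of-ratios scaling), with 1 past 2-fold higher, 6 past 2-fold lower and a median log2 ratio of -0.24. Mcm2, a subunit of the replicative helicase, had 10.8 CPM with micronuclei and 59.0 CPM without (log2 ratio -2.34). Gins2, another replication factor, had 51.2 CPM with and 112 CPM without (-1.12, and -0.64 without cell 8 of the cells without micronuclei). Ccnb2, a mitotic cyclin, had 34.1 CPM with and 1.64 CPM without (3.74), with 65.5% of its reads in micronucleated cell 13 and a ratio of 2.38 without it.

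**Figure D5:**
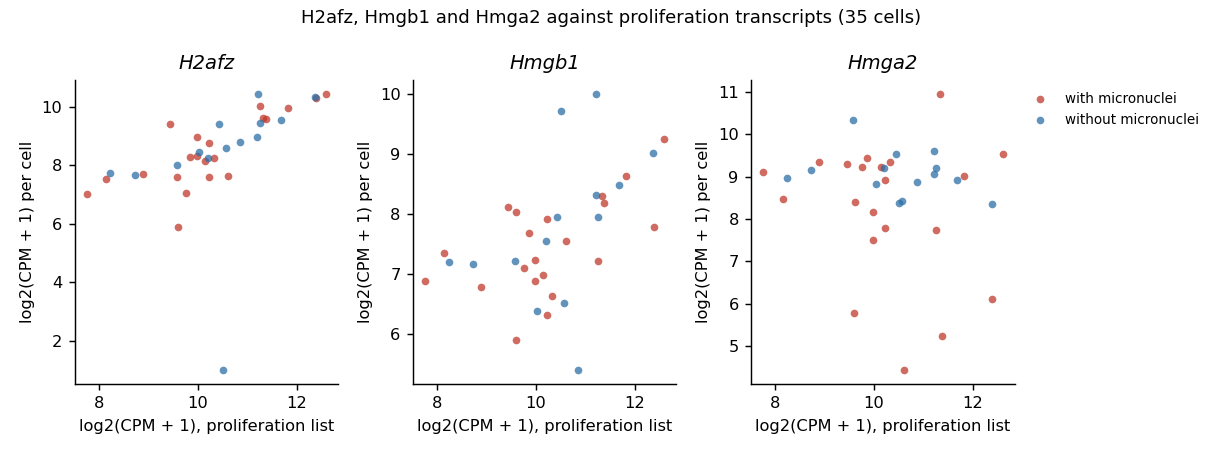
The 3 panels plot log2(CPM + 1) of H2afz, Hmgb1 and Hmga2 in each cell on the vertical axis against log2(CPM + 1) of 22 summed proliferation genes on the horizontal axis, with 1 point per cell, coloured by micronuclei. H2afz climbs with the sum in both groups apart from 1 cell without micronuclei at 1.01 CPM, Hmgb1 climbs with more scatter, and Hmga2 shows no slope (Spearman rho 0.76, 0.53 and -0.12).

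The genes whose rank pattern over the 35 cells was most like that of a member were, for H2afz, Ccnb1 (rho 0.80), a mitotic cyclin, and Cks2 (0.76), a subunit of cyclin-dependent kinases. For Hmgb1 they were Hnrnpk (0.73), an RNA-binding protein gene, and Pclaf (0.67), whose product binds PCNA. For Hmga1 they were Nhp2 (0.73), a small nucleolar RNP protein gene, and Eef1g (0.71), an elongation factor gene. For H3f3a they were Dad1 (0.71) and Sar1b (0.64), both of the secretory pathway, and for H3f3b Wdr26 (0.65) and Rdh13 (0.64). Hmgn1 was most like Tcp1 (0.66), a chaperonin subunit, and 2410004B18Rik (0.63), and H2afy most like Pcnt (0.58) and Crnkl1 (0.58). Ccnh (0.61) was among those most like Hmga2. Some of these genes had at least 5 reads in few of the 35 cells: Ccnb1 and Crnkl1 in 11, Pcnt in 13, Ccnh in 17 and 2410004B18Rik in 18. Their ranks therefore rest in part on low counts. After thinning the rho was 0.79 for Ccnb1, 0.46 for Crnkl1, 0.48 for Pcnt, 0.57 for Ccnh and 0.68 for 2410004B18Rik. H2afv and H1f0 had at least 5 reads in fewer than 25 cells, so no likeness was computed for them.

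A further list held 16 genes of histone chaperones and related factors, all measured. Among them 4 were higher and 12 lower in summed reads in micronucleated cells, where 44.0% of measured genes were lower. The median log2 ratio was -0.42, beside 0.15 for all measured genes, and 7 of the 16 kept a lower sign in sums, equal weights and every leave-out, beside 20.1% of measured genes. Past 2-fold, 1 was higher and 4 were lower, beside 22.9% and 14.7% of measured genes. Each of these 4 was under 2-fold when 1 cell without micronuclei was left out. Chaf1a was at -0.29 without cell 8 of that group. Asf1b was at -1.22 in the sums and at -0.06 without cell 7 of that group, which held 45.2% of all its reads. Nasp, which stores H3 and H4, had 32.1 CPM with micronuclei and 65.7 CPM without (log2 ratio -1.01, or -1.60 when micronucleated cell 21 and -0.63 when cell 8 without micronuclei was left out). Hjurp, the chaperone of the centromeric variant CENP-A, had 34.5 CPM with micronuclei and 92.5 CPM without (-1.40, and -0.66 without cell 7 of the cells without micronuclei). Hat1, the acetyltransferase of new H4, had 38.3 CPM with micronuclei and 6.80 CPM without (2.33, and 1.86 without micronucleated cell 9).

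Reads of near copies and of overlapping genes limit some of these values. The table's 9 Hmgb1 copies held 1.52% of the combined reads of gene and copies, and its 3 copies of the H3.3 genes 0.0773%, and reads that map to both could have been split or dropped in counting. The annotated spans of H1f0, H2afy, H3f3a, Hmgb1, Hmga1 and Hmga2 overlap genes on the opposite strand, among them Uspl1 for Hmgb1 and H3f3aos for H3f3a, and whether strand was used in counting is not given in the sources used here. H2afz, H2afv, H3f3b and Hmgn1 have no such overlap in the annotation.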

How the data were processed

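The deposited table holds raw read counts per gene for 35 single cells, aligned with STAR to GRCm38.p5 per the submitters' processing notes; the versions, the annotation release and the strand setting were not given there. It also lists 62 spike-in RNAs, which stayed out of every total. All 35 cells were used, no column was left unused (0), no pair of the 595 pairs of cells was identical, and no doublet caller was run on cells picked by laser.

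Reads were summed over the cells of each group, 11084425 with micronuclei and 11612303 without, and scaled to CPM. Ratios have 1 CPM added to each side. Measured genes had 5 CPM or more in the sum of both groups and 5 or more reads in 5 or more cells. Past 2-fold means an absolute log2 ratio of at least 1. Since each group counts as 1 sample, no test was made. The 95% intervals (exact Poisson for sums, exact Clopper-Pearson for shares) and the floor of 3 reads for a count of 0 cover counting error only, because several reads can stem from 1 molecule. Thinning drew 100000 reads from each of 31 cells, 18 with and 13 without micronuclei, and left out 4 shallower cells.

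The members and the lists of related genes (other histone variants, clustered histones, other HMG proteins, H2A.Z exchange, H3.3 deposition, chaperones, let-7 and Lin28 genes, HMGB1 receptors, proliferation and cell type markers) were chosen with earlier results of these data known. All members are named, and from each list up to 3 measured genes whose smallest ratio of one sign over sums, equal weights and every left-out cell was largest. Asf1b, Chaf1a, Ep400 and Ruvbl1 were named in addition, after their values were seen. Likeness was ranked for members with at least 5 reads in 25 cells. Some genes that these rules name are not reported here. Other settings tried were equal weights, means of log2 CPM, scaling by TMM or median of ratios, 0.1 or 5 CPM added, other filters, thinning and leaving out each cell. Chosen after the data were seen were sums without 6 cells of few genes or high mitochondrial share, without 3 cells with macrophage markers and, for the overlap of members, without the 8 cells of either kind, as well as shares by principal transcript length.

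Positions and exon lengths are from GENCODE on GRCm38, and promoters from RefSeq on GRCm38.p6, where all 10 members matched. Scripts were tested on simulated data. The tools were R 4.3.3 with edgeR 4.0.16 (TMM factors) and DESeq2 1.42.0 (size factors), and Python 3.11.15 with scipy 1.17.1, numpy 2.4.6, matplotlib 3.10.9 and pandas 2.3.3.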

Additional observations from a re-analysis of the deposited data

How the results depend on the processing

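No paired analysis was possible because the labels link no cell with micronuclei to a cell without. The cell numbers used here run separately within each group and do not pair cells. No result comes from a test. The number of members higher in micronucleated cells, 6 of 10, was 5 with equal weights, TMM, median-of-ratios scaling or thinning, and between 4 and 7 when each cell was left out. The number past 2-fold, 2 of 10, was 1 with equal weights, TMM, median-of-ratios scaling, 5 CPM added or thinning, and between 1 and 2 when each cell was left out. The 1 member that stayed past 2-fold in each of these was H2afv. H3f3b was below 0 with equal weights, mean log2 CPM, TMM, median-of-ratios scaling and thinning. Of measured genes, 37.7% were past 2-fold in the sums, 26.2% with equal weights, 26.7% with mean log2 CPM and 30.8% after thinning, all over the same 8390 genes. The share was 23.8% over the genes that stayed measured in the thinned counts and 31.0% over those of the stricter filter. With mean log2 CPM 80.2% of the genes past 2-fold were higher, against 60.9% in the sums, and with TMM 53.8%. TMM scaling moved the median of all measured genes by -0.13 and median-of-ratios scaling by -0.11. Libraries of few reads limit H2afv, H3f3a and H1f0 most, since a count of 0 in the shallowest library allows up to 52.8 CPM.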

Other observations

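The 10 genes together took between 2101 and 6352 CPM of a micronucleated cell's reads (median 3646) and between 2122 and 8245 CPM in cells without micronuclei (median 3474), with wide overlap. Other variant genes were looked at after their values were seen. Cenpa, the centromeric H3 variant, had at least 5 reads in 9 of 21 micronucleated cells and in 2 of 14 cells without micronuclei. Its summed levels were 60.2 CPM with micronuclei and 44.0 CPM without (log2 ratio 0.44), and cell 8 without micronuclei held 35.2% of all its reads, so that the ratio was 2.55 without that cell. Without micronucleated cell 13 it was -0.0028, so its direction depended on which cell was left out. H2afx, whose product is phosphorylated at DNA breaks, had 79.7 CPM with micronuclei and 90.9 CPM without (log2 ratio -0.19, and 0.16 with equal weight for every cell), with at least 5 reads in 15 of 21 cells with micronuclei and 8 of 14 without. Chaf1a shows how far 1 cell can carry a value. Cell 8 without micronuclei held 81.5% of all reads of Chaf1a, a subunit of the replication-linked chaperone CAF-1, whose log2 ratio was -3.14 with that cell and -0.29 without it.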
